A study of Mus musculus with 3 samples.

Results

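The miRNAs described here are best known from tissues other than the testis: the muscle miRNAs miR-1a, miR-133a, miR-133b and miR-206, the liver miRNA miR-122, the neural miRNAs miR-124 and miR-9, and the endocrine miRNA miR-375. They were taken by name from the miRNA catalogues of extracellular vesicles (EVs) of the neonatal mouse testis, and 18 of the 1347 mature and hairpin entries in the 3 libraries belonged to them (8 of 604 mature and 10 of 743 hairpin entries, under 11 identifiers). A mature entry counts reads that the authors assigned to the processed miRNA of about 22 bases, and a hairpin entry carries the same identifier under a type that the study's text does not define. Muscle miRNAs were counted in every library, at 840 ± 244 counts per 1000000 mature counts in sum (CPM; SD, n = 3), whereas the liver, neural and endocrine miRNAs together never exceeded 31 mature counts in a library.

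Each library came from EVs of whole decapsulated testes of 10 C57/BL6 males at postnatal day 7 (PND7), treated with proteinase K and RNase A before RNA extraction, and there was 1 group with 3 replicates and no comparison group. The sample titles add the word treated, and the enzyme treatment of the EVs is the only one that the labels describe. The EVs are a mixture from every cell type of the testis, so a miRNA cannot be assigned to a cell of origin, and fewer EVs of a type and less RNA per EV cannot be told apart. The libraries held 25716952, 26002463 and 27939308 clean reads, of which 870967, 1005836 and 966468 were mature counts and 493345, 612122 and 577529 hairpin counts. A single mature count thus stands for 1.15, 0.994 and 1.03 CPM in replicates 1, 2 and 3, and a count of 0 allows up to 3 counts, or 3.44, 2.98 and 3.10 CPM.

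A miRNA guides the Argonaute protein to messenger RNAs through its seed, bases 2 to 8 from its 5′ end, and so lowers the output of many genes at once. miR-1 and miR-133 are transcribed together in heart and skeletal muscle under the myogenic transcription factors, where miR-1 favours differentiation and miR-133 affects myoblast proliferation. miR-206 is related to miR-1 and, with miR-133b, is largely restricted to skeletal muscle. miR-122 makes up most of the miRNA of hepatocytes, miR-124 is a marker of neurons, miR-9 of neural progenitors and neurons, and miR-375 of pancreatic islets and other endocrine cells. The testis has smooth-muscle-like peritubular myoid cells, and the cremaster outside its capsule is skeletal muscle.

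Sequences matched in RefSeq (GRCm38.p6) are given here with the seed in capitals, for members that had a mature count. Beside them stand 2 heart and muscle miRNAs from the comparison lists below. RefSeq sequences were matched for 5 of the 11 identifiers, not all of which had a mature count.
miR-206-3p: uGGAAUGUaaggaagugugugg
miR-133b-3p: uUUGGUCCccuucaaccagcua
miR-1a-1-5p: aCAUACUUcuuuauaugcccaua
miR-9-5p: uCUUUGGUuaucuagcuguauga
miR-499-5p: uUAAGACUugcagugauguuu
miR-208a-3p: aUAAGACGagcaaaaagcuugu
No 2 of these share all 7 seed bases, and miR-499-5p and miR-208a-3p share the first 6 of them, UAAGAC. No sequence was matched for miR-1a-3p and miR-133a-3p, so their seeds were not compared with those of the related miR-206-3p and miR-133b-3p. The miR-206 hairpin lies at chr1:20679010-20679082 on the plus strand, and the arm that was counted, bases 46 to 67 of its 73, is in capitals.
Mir206 hairpin: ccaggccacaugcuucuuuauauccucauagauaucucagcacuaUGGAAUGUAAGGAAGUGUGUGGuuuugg

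miR-133a-3p was the most abundant of the members. Its mature entry had 454, 322 and 550 counts in replicates 1, 2 and 3, or 521, 320 and 569 CPM. The exact 95% binomial intervals were 474 to 571, 286 to 357 and 523 to 619 CPM, so replicate 2 lay below the others by more than counting error. Intervals here cover counting error only, because PCR duplicates could not be removed. At 470 ± 132.1 CPM (SD, n = 3) the entry ranked 100 of the 604 mature miRNAs by mean level. By the smallest maximum log2 difference over the 3 libraries, the 2 mature miRNAs nearest to it were miR-574-3p, with 403, 386 and 471 CPM, and miR-485-5p, with 521, 416 and 679 CPM; this maximum was 0.37 and 0.38.

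miR-1a-3p came next, with 185, 240 and 314 mature counts, or 212.4, 239 and 325 CPM (259 ± 58.9, SD, n = 3). It was below miR-133a-3p in all 3 libraries, and the log2 ratio of miR-133a-3p to miR-1a-3p was 1.30, 0.42 and 0.81 (0.84 ± 0.44, SD, n = 3). miR-206-3p had 96, 13 and 141 counts, or 110, 12.9 and 146 CPM (89.7 ± 68.8, SD, n = 3; rank 188). It was the least steady of the 4 muscle members with at least 10 counts in every library, since its highest value was 11.3 times its lowest, against 1.78 times for miR-133a-3p, 1.53 times for miR-1a-3p and a median of 1.72 times over the 272 mature miRNAs that met the same minimum. miR-133b-3p had 13, 13 and 32 counts, or 14.9, 12.9 and 33.1 CPM (20.3 ± 11.1, SD, n = 3; rank 340). It was below miR-206-3p in replicates 1 and 3 and tied with it in replicate 2, so these neighbours did not keep their order in every library.

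miR-133a-3p held 56.1% ± 4.00 of the muscle counts, miR-1a-3p 31.9% ± 8.11, miR-206-3p 9.54% ± 6.36 and miR-133b-3p 2.34% ± 0.686 (SD, n = 3 each). The 3p strand, which is the guide strand of these miRNAs, carried 2373 of the 2376 mature and 4469 of the 4474 hairpin counts of the muscle members. The 5p strand was seen as miR-1a-1-5p, with 1, 2 and 0 mature and 3, 0 and 0 hairpin counts, and as the hairpin entry of miR-133a-5p, with 2 counts in replicate 3. Of the 4 muscle members with at least 10 counts in every library, all 4 were highest in replicate 3 and 3 were lowest in replicate 2, the exception being miR-1a-3p, which was lowest in replicate 1. How many of all 272 mature miRNAs with this minimum had the same order was not counted, so it is not shown to be particular to muscle. miR-133a and miR-133b are near-identical in sequence, and the authors' counting could have divided reads between them.

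**Figure D1:**
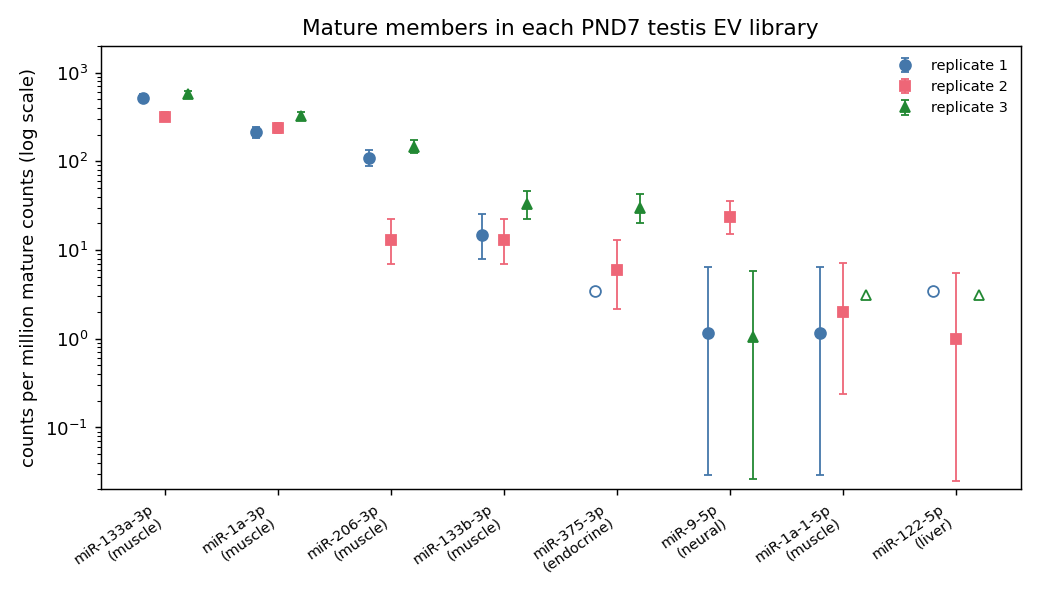
Mature level of each member in CPM (log scale) by library, with exact 95% binomial intervals. Open symbols stand at the limit that a count of 0 allows, and the muscle members miR-133a-3p and miR-1a-3p lie above 200 in every library while the non-muscle members do not exceed 30.0. The other muscle members do not all lie above them. In replicate 2, miR-206-3p and miR-133b-3p, at 12.9 each, lie below the neural miR-9-5p at 23.9, and miR-1a-1-5p has 1, 2 and 0 counts.

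The muscle miRNAs are encoded in pairs in the GENCODE annotation of GRCm38, the assembly that the submitters' notes name as mm10. Mir206 and Mir133b (chr1:20682769-20682887) are separated by 3686 bases on chromosome 1, and both overlap exons of the non-coding gene Gm28653 on the same strand. Mir1a-1 (chr2:180389048-180389124) and Mir133a-2 (chr2:180398379-180398482) are separated by 9254 bases on chromosome 2 and overlap no other annotated gene. Mir133a-1 (chr18:10782909-10782976) and Mir1a-2 (chr18:10785481-10785552) are separated by 2504 bases on chromosome 18, in introns of Mir133a-1hg on the same strand and of Mib1 on the opposite strand. Mature miR-1a-3p and miR-133a-3p can come from either locus, and the catalogues list their counts under the copies on chromosome 18.

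The neural members were near the limit of counting in replicates 1 and 3. Mature miR-9-5p had 1, 24 and 1 counts, or 1.15, 23.9 and 1.03 CPM, and its hairpin entry had 0, 30 and 1 counts, so both types were high in replicate 2 and at or under 1 count elsewhere. miR-9-3p had a single hairpin count, in replicate 1. miR-124-3p, the neuronal marker, had no mature count and 1, 1 and 0 hairpin counts. The pattern of miR-9-5p is not rare in these libraries: 88 of the 604 mature entries (14.6%) had at least 20 counts in 1 library and at most 1 in each of the others, and among hairpin entries 85 of 743 (11.4%) did. By the smallest maximum log2 difference over libraries, miR-543-3p (1, 37 and 1 counts) and miR-1247-5p (2, 18 and 1 counts) were the mature miRNAs nearest to miR-9-5p, with a maximum log2 difference of 0.62 and 1.00. The precursors Mir9-1, Mir9-2 and Mir9-3 give the same mature sequence and lie at chr3:88215598-88215686, chr13:83738814-83738885 and chr7:79505264-79505353, within long non-coding RNA genes.

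miR-375-3p, the endocrine member, had 0, 6 and 29 mature counts, or 0, 5.97 and 30.0 CPM, and 0, 0 and 35 hairpin counts, so replicate 3 was the high library. Its interval in replicate 3, 20.1 to 43.1 CPM, did not overlap that in replicate 2, 2.19 to 13.0 CPM, and replicate 1 had no count. Every pair of libraries differed widely, and replicates 2 and 3 the least, with a chi-square per degree of freedom of 96.6 over 272 mature miRNAs. It was 142.8 for replicates 1 and 2 and 187.4 for replicates 1 and 3. The hairpin entry was among the 85 of 743 (11.4%) with at least 20 counts in 1 library and at most 1 in each of the others. Mir375 lies at chr1:74900658-74900721 on the minus strand, outside other annotated genes. miR-122-5p, the liver member, was at 0, 1 and 0 mature counts and had no hairpin entry, which is at or under the limit of a count of 0 in every library. Mir122 lies at chr18:65248861-65248926 at an exon of the long non-coding gene AC157910.3. With so few counts, an absence of mature miR-122-5p and miR-124-3p from the EVs cannot be told from a level below the depth, and the precursor family of miR-124 did have 54 counts in replicate 2, against 1 and 0 in replicates 1 and 3.

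Of the 8 mature members, 5 had at least 1 count in every library, against 54.1% of the 604 mature entries, and 4 had at least 10 counts in every library, against 45.0%. All 4 were muscle miRNAs. For the 10 hairpin entries, 4 had at least 1 count in every library, against 55.6% of the 743 hairpin entries, and 3 had at least 10 counts, against 43.6%. With only 8 and 10 entries no test was made, and no difference from the background shares is read from these counts.

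Muscle members held 97.5% of the 2438 mature and 98.5% of the 4543 hairpin counts of the members summed over the libraries. In replicates 1, 2 and 3 the muscle sum was 749, 590 and 1037 mature counts, or 860, 587 and 1073 CPM, and no neural, liver or endocrine sum overlapped this range. The neural sum was 1, 24 and 1 counts, so the ratio of muscle to neural counts was 749 (exact 95% interval 134 to 29623), 24.6 (16.4 to 38.7) and 1037 (186 to 40998). On the log2 scale this ratio averaged 8.06 ± 2.99 (SD, n = 3), above 0 in 3 of 3 libraries (p = 0.25 in a two-sided exact permutation test that flips the signs of the ratios, which with 3 libraries can go no lower). Of the 6 pairs of tissue groups, the other 5 included a library with a sum of 0 and had no log2 ratio. The muscle counts were 249.7 times the endocrine limit in replicate 1, where the endocrine sum was 0 and was set to 3 counts. The lower end of the exact 95% interval for that ratio was 202.5. The muscle counts were 98.3 times the endocrine counts in replicate 2 (exact 95% interval 44.9 to 269) and 35.8 times in replicate 3 (24.7 to 53.7). Summed over the libraries the ratio was 67.9 (48.7 to 97.7), and 223.2 (102 to 609) without replicate 3, so its size rests on that library. The liver member had a single count, in replicate 2. With the same limit, the ratio of muscle to liver counts was 249.7 in replicate 1 and 345.7 in replicate 3. The lower ends of the exact 95% intervals were 202.5 and 280.6.

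The balance between hairpin and mature counts differed among the muscle members. miR-133a-3p had 1161, 994 and 1577 hairpin counts, more than its mature counts in every library, and its log2 ratio of hairpin to mature counts was 1.35, 1.63 and 1.52 (1.50 ± 0.14, SD, n = 3). Over the 292 identifiers counted as both types in every library, the median of this log2 ratio was -0.26 and the upper quartile 1.11, so miR-133a-3p lay above the upper quartile in each library. miR-1a-3p had 203, 180 and 238 hairpin counts and a log2 ratio of 0.13, -0.42 and -0.40. Its mean, -0.23 ± 0.31 (SD, n = 3), was close to the median. miR-206-3p had 19, 24 and 35 hairpin counts, a far narrower range than its mature counts, so that its log2 ratio was negative in replicates 1 (-2.34) and 3 (-2.01) but 0.88 in replicate 2. miR-133b-3p had 15, 16 and 7 hairpin counts, and its log2 ratio was 0.21, 0.30 and -2.19. For miR-1a-3p, miR-206-3p and miR-133b-3p the ratio therefore changed sign between libraries. Scaled to the hairpin counts of each library, miR-133a-3p had 2353, 1624 and 2731 CPM (2236 ± 563, SD, n = 3) and ranked 61 of 743 hairpin entries.

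**Figure D2:**
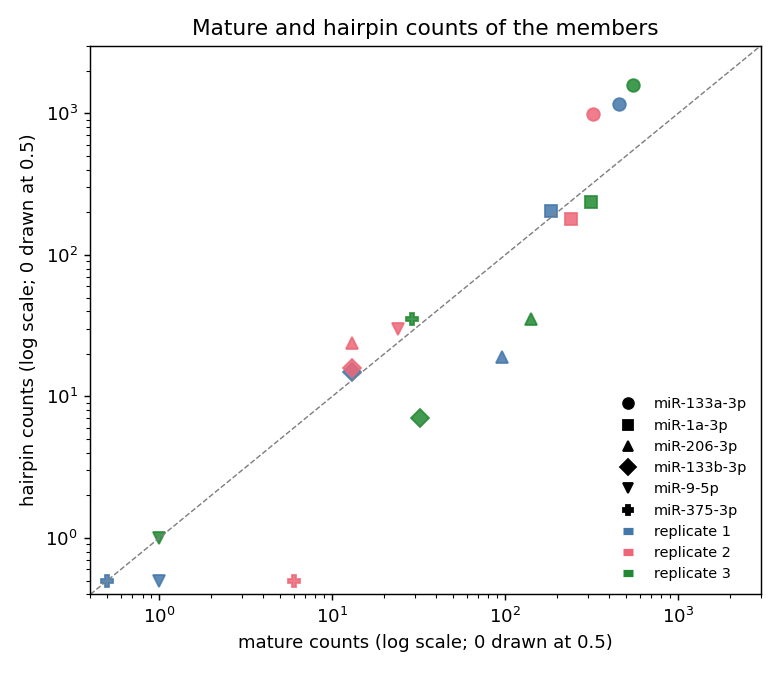
Hairpin against mature counts of the members with over 10 counts in sum, 1 symbol per library (both axes log scale, zeros drawn at 0.5). The dashed line marks equal counts, miR-133a-3p lies above it in all 3 libraries, and miR-206-3p lies below it in replicates 1 and 3 and above it in replicate 2.

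Further miRNAs of the same tissues were counted for comparison. miR-208a and miR-208b lie in introns of the cardiac myosin heavy chain genes Myh6 and Myh7, and miR-499 in an intron of Myh7b. These miRNAs are restricted to heart and slow skeletal muscle, and they were counted too, miR-208b-3p with only 3, 7 and 10 counts. Their summed mature level was 987, 775 and 1293 CPM, with the lowest value in replicate 2 and the highest in replicate 3, as for the muscle members. This order was not particular to muscle miRNAs. The islet and pancreas list and the erythroid and leukocyte list below had it too, whereas the neural, liver and gut, endothelial and gonadal lists did not. The log2 ratio of the muscle members to this list was -0.20, -0.40 and -0.27 (-0.29 ± 0.10, SD, n = 3; adjusted p = 0.25 over 7 lists, exact paired sign-flip permutation test). miR-499-5p led with 737, 675 and 1097 counts, or 884 ± 234 CPM (SD, n = 3; rank 76), above miR-133a-3p in every library. The heart miRNA miR-208a-3p had 92, 79 and 115 counts, or 101 ± 20.6 CPM (SD, n = 3; rank 180), and varied less than miR-206-3p. Mir499 lies at chr2:155622880-155622958 and Mir208a at chr14:54949060-54949142.

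Other neural miRNAs were at a higher level than the neural members, at 498, 385 and 218 CPM in sum. Of 9 mature entries in this list 2 had at least 10 counts in every library, against 45.0% of all mature entries, with miR-138-5p highest at 200, 182 and 161 counts, and miR-137 had none. The liver and gut list held miR-192-5p, with 1, 97 and 79 counts, and miR-194-5p, with 1, 0 and 1 counts, and miR-215 was not counted. In the islet and pancreas list, miR-7a-5p had 2022 ± 273 CPM (SD, n = 3), whereas the pancreatic miR-216a-5p had 1 count in all and miR-216b and miR-217 none. miR-7a-5p and miR-7b-5p differ by little in sequence, and their hairpin counts were 552, 249 and 12416 against 9206, 13041 and 5, so the division of reads between them is uncertain.

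Blood and vessel miRNAs were present beside the muscle miRNAs. The erythroid and leukocyte list summed to 1068, 740 and 1084 CPM, a range that overlaps that of the muscle members. This sum rests mainly on miR-150-5p, at 442 ± 142.3 CPM, and miR-451a, at 411 ± 101.5 CPM (SD, n = 3 each). Among its lower entries, miR-142a-3p had 10, 2 and 1 counts, miR-144-3p 7, 6 and 4, and miR-223-3p 33, 1 and 21. Of the 11 mature entries of this list 3 had at least 10 counts in every library, against 45.0% of all mature entries. The log2 ratio of the muscle members to this list was -0.31, -0.33 and -0.02. The endothelial and mural list, led by miR-126a-3p, had 21435 to 29282 CPM, and the gonadal somatic list of miR-202 and miR-140, led by miR-202-5p, had 21412 to 30014 CPM. The gonadal sum rests on miR-202, since miR-140-5p and miR-140-3p averaged 120 and 78.9 CPM, against 23963 for miR-202-5p. The log2 ratio of the muscle members to the gonadal list was -4.98 ± 0.60 and to the endothelial list -4.95 ± 0.43 (SD, n = 3 each), below 0 in 3 of 3 libraries each (adjusted p = 0.25 over 7 lists, exact paired sign-flip permutation test). The part of blood, vessel or neighbouring striated muscle in the level of the muscle miRNAs was not tested.

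**Figure D3:**
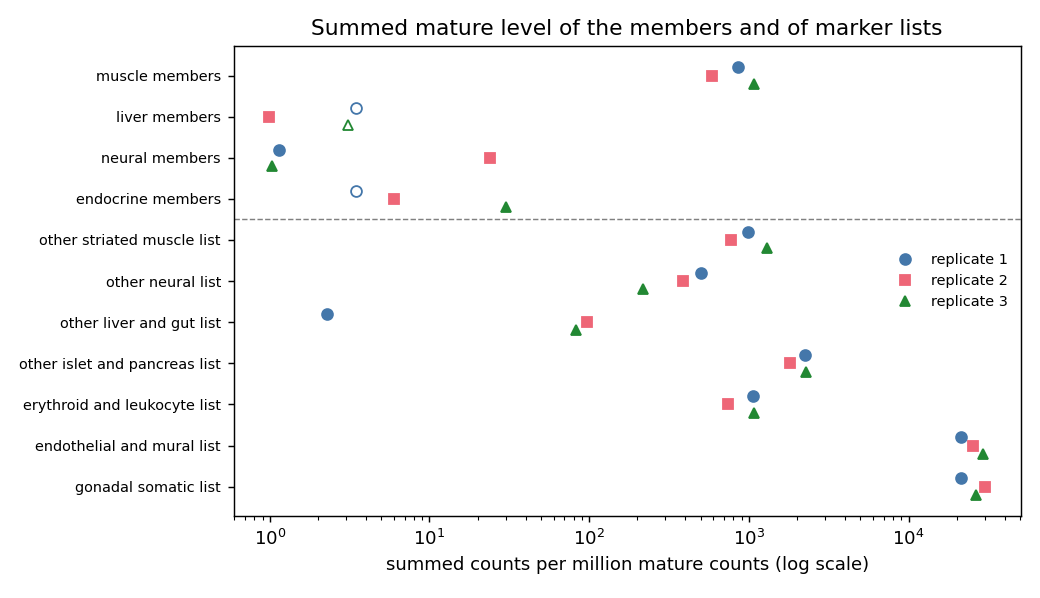
Summed mature level, in CPM (log scale), of the members by tissue (above the dashed line) and of the marker lists (below it), 1 symbol per library, with open symbols at the limit that a count of 0 allows. The muscle members lie at 587 to 1073, near the other striated muscle and the erythroid and leukocyte lists, and below the endothelial and gonadal lists.

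A further class of entries, the precursor families of the Rfam database, also held reads of the muscle families. The mir-133 family had 3174, 2728 and 4416 precursor counts and ranked 8 of 259 precursor entries by its share, 2.47% ± 0.651 (SD, n = 3). Of all counts on miR-133a, miR-133b and this family, the precursor counts made up 66.6% ± 0.656 (SD, n = 3), against 8.53% ± 0.519 over all miRNA entries. For the mir-1 family, with 297, 276 and 391 precursor counts, the share beside the miR-1a entries was 41.4% ± 1.78 (SD, n = 3). The entries of the related miR-206 and of miR-1b were left out of this share, and a share with them was not calculated. It is therefore not like the mir-133 share, which holds both miR-133a and miR-133b. Most reads of the miR-133 family thus fell outside the mature entries in each library, and the levels above describe only the part that was counted as mature or hairpin. Per the study's methods, miRBase took precedence over Rfam when reads were classed.

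**Figure D4:**
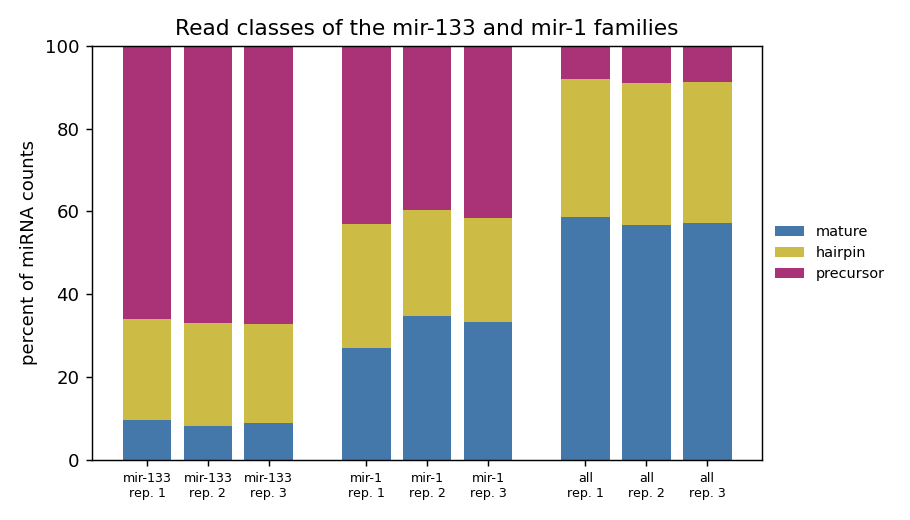
Percent of miRNA counts assigned to mature, hairpin and precursor entries (stacked to 100%) in each library, for the mir-133 family, the mir-1 family (miR-1a entries with the mir-1 precursor family) and all miRNA entries. The precursor share is 65.9% to 67.1% for mir-133 and 7.93% to 8.87% for all entries. The mir-1 bars leave out miR-206 and miR-1b.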

How the data were processed

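The 3 small RNA libraries of testis EVs at PND7 were read on the BGISEQ-500 platform. After filtering for quality, the authors mapped reads to the genome and to small RNA databases by means of Bowtie2 and cmsearch, and gave each read 1 class, with miRBase first. The build is mm10 per the labels, and versions and mismatch settings are not given in the sources used here. The deposited values are whole-number counts per small RNA and per class, and were not normalized, and class summaries add each class as a percent of clean reads. A deposited column headed as molecular identifiers equalled reads scaled to 1000000 clean reads on every named row (tolerance 0.001) and was not used. The 5 rows that name no small RNA held 62.8% to 65.9% of clean reads and stayed out of all totals.

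Members were taken by identifier, and their mature and hairpin counts were scaled to 1000000 counts of that type (CPM) in each library, with absent rows as 0. Values are mean and SD over libraries, with exact (Clopper-Pearson) 95% intervals for single libraries and a limit of 3 counts for a count of 0. Log2 ratios were tested against 0 by an exact permutation test over all sign flips of the 3 libraries (two-sided, at best p = 0.25), and adjusted by Benjamini-Hochberg. The labels call the libraries biological replicates and give 10 mice for each preparation. Between libraries the chi-square per degree of freedom over 272 mature miRNAs was 96.6 to 187, so the libraries differed by more than counting error. The statistic itself was checked on simulated data, which does not bear on the replicates. The members and lists were chosen with earlier results of these data known. The rule for names covered every member, the 2 mature miRNAs nearest in level to the top member of each tissue and the highest miRNA of each list, and other list entries, as well as the precursor families, the ratios to lists and the count of entries high in 1 library, were chosen after their values were seen. The nearest level had no value for miR-122-5p and miR-375-3p, which were not counted in every library. Positions came from GENCODE vM21 and sequences from RefSeq. Alternatives changed the scaling, the types counted, the averaging, the minimum of 10 counts, a pseudocount of 1 count and the libraries used. Calculations used SciPy 1.17.1, numpy 2.4.6 and pandas 2.3.3 under Python 3.11.15, and plots matplotlib 3.10.9.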

Additional observations from a re-analysis of the deposited data

Results flagged for a closer look

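Entries outside the mature and hairpin members held counts above the limit of 3 that a count of 0 allows, and there was no control library to set them against. Among the precursor entries, the mir-133 family averaged 3439 counts over the libraries, the mir-1 family 321, the mir-9/mir-79 family 17.0 (20, 4 and 27 counts) and the mir-124 family 18.3 (1, 54 and 0 counts). The mir-124 family was thus high in replicate 2, as miR-9-5p was, whereas the mir-9/mir-79 family was lowest there.
Near relatives by name also had counts. miR-1b-5p averaged 8 mature and 310 hairpin counts (272, 261 and 396 hairpin counts), and Mir1b is annotated on the strand opposite to Mir1a-2 at an overlapping position. miR-9b-3p averaged 79.3 mature counts (58, 94 and 86), more than miR-9-5p in every library, and 17.3 hairpin counts (4, 48 and 0).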

How the results depend on the processing

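The summed mature level of all members was 861 CPM, and that of the muscle members 840 CPM. Scaled to 1000000 clean reads they were 30.4 and 29.6, a change of unit, and with mature and hairpin entries summed, 1550 and 1522. Of the 8 mature members 5 were counted in every library, and 8 in any library, a looser rule by construction. The log2 ratio of muscle to neural counts stayed above 0 under every alternative run for it (7.38 with 1 count added to each sum, 8.34 with hairpin entries summed), and leaving out each replicate gave 7.08 to 9.78. Leaving out each replicate gave summed levels from 739 to 983 CPM for all members, and 5 to 6 members counted in every library. The neural level rests on replicate 2, with 8.68 CPM in all and 1.09 without it, and the endocrine level on replicate 3, with 12.0 CPM in all and 2.98 without it. The median log2 ratio of hairpin to mature counts over 4 muscle members was -0.39, and from -0.56 to 0.06 with each replicate left out, so its sign rests on replicate 3. For single mature members, pooling the libraries, other size factors or summing with hairpin entries moved the level by less than 1 SD in 23 of 24 cases (miR-133a-3p rose to 1125 CPM with hairpin entries summed), which shows little for miR-9-5p, miR-375-3p and miR-122-5p, whose SD exceeds their mean. In an alternative chosen after seeing the data, leaving out each replicate gave ratios of summed muscle to endocrine counts from 46.5 to 223.2 and to neural counts from 53.6 to 893 (91.4 with all libraries). No paired analysis was possible because the series has 1 group, so replicate numbers pair no groups, and the ratios tested are between miRNAs within a library. Depth limits mature miR-122-5p and miR-124-3p and the 5p strands of miR-1a and miR-133a, which had at most 3 counts in a library.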
